A study of Homo sapiens with 4 samples.

Results

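Glycosyltransferases and carbohydrate sulfotransferases are the enzymes of the endoplasmic reticulum and Golgi that build the sugar chains of glycoproteins, glycolipids and proteoglycans. Their genes were described in HT29 cells, a human colorectal adenocarcinoma line, sorted by FACS on CD26, the surface peptidase encoded by DPP4. The members were the rows of the authors' deposited comparison table whose single gene symbol belongs to one of the transferase families (GALNT, B3GNT, B3GAL, B4GAL, ST3GAL, ST6GAL, ST8SIA, FUT, MGAT, GCNT, CHST, CHSY, HS2ST, HS3ST, HS6ST, EXT, NDST, XYLT, C1GALT, ALG), to the trimming mannosidases MAN1 and MAN2 or to the epimerases DSE and DSEL. This gave 78 probe sets of 63 genes, of 8413 probe sets and 6603 genes with a single symbol in that table. No member came from the ST8SIA, CHSY or XYLT families.

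The arrays were Affymetrix human genome U133 Plus 2.0 chips, with total RNA of 2 samples of CD26+ HT29 cells, those with the highest CD26 staining, and 2 samples of CD26- HT29 cells, those with the lowest, grown in DMEM with serum and given no treatment that the labels name. Both groups came from 1 cell line. The labels call the samples of a group biological replicates without saying what separates them. The labelled groups are those of the sort, and RNA of a sorted population cannot tell fewer cells that express a gene from less RNA per cell.

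Cells attach N-glycans as a preassembled block that the ALG enzymes build on a lipid, and mannosidases and MGAT enzymes then trim and branch it in the Golgi. Mucin-type O-glycans start with a GalNAc residue added by a GALNT enzyme and are extended by C1GALT1, B3GNT, B4GALT and B3GALT enzymes. Sialyltransferases and fucosyltransferases cap both kinds of chain, and the capped structures include the Lewis and sialyl-Tn antigens known from colorectal cancer. Glycosaminoglycans grow on a linker made by B4GALT7 and B3GALT6 and are sulfated by NDST, HS2ST, HS3ST, HS6ST and CHST enzymes.

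The rule rests on a measured value. Of the 11430 listed probe sets, 11429 were at least 2-fold apart between the signals of CD26+ replicate 1 and CD26- replicate 1, against 5926 to 8935 in the other 3 CD26+ and CD26- pairings. The members were thus chosen by the fold between the signals of that pair, and its differences are given only as a description. The folds of the members in that pair ran from 2.00 for the ALG5 probe set 1560733_at, just inside the limit, to 10.2 for ST6GALNAC4. Probe sets under 2-fold carry no gene symbol in the files and were not analysed here. A probe set of the table is called listed as higher where its signal on CD26+ replicate 1 exceeded that on CD26- replicate 1, and listed as lower otherwise. Of the members, 29 were listed as higher and 49 as lower, so 37.2% were listed as higher, where 56.1% of all 8413 probe sets were. CD26+ replicate 2 and the second CD26- array did not enter the choice.

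Some features of the arrays touch every value below. DPP4, the gate of the sort, had signals of 6649 and 2513 in CD26+ cells, against 1952 and 6465 in CD26- cells with its brighter probe set (203717_at), so the second CD26- array goes against its label and is called here the array labelled CD26- replicate 2. With 203716_s_at they were 516 and 549 (CD26+) against 203 and 867 (CD26-). With 203717_at CD26+ replicate 2 was only a little above CD26- replicate 1, despite its higher array median, so DPP4 does not clearly bear out its label either. CD26+ replicate 2 had a Pearson r of 0.289 to 0.321 with each of the others across probe sets, which are not independent, while those 3 correlated with each other at 0.910 to 0.928. Its median signal was 270.3, against 76.1 to 96.7 on the others, and the median signal of its 18 hybridisation control probe sets was 79655, against 4689 to 6591. The 8 colon epithelial markers with a symbol, of 14 looked for, had summed signals of 62073 and 4243 in CD26+ cells, against 63451 and 142009.8 in CD26- cells. Of the 10 probe sets of these 8 genes, 6 were lowest on CD26+ replicate 2 (KRT19 at 50.3, KRT20 at 36.3), 3 lay between the other arrays there (CDX1 at 380.2, CDH17 at 814) and 1 was highest (CDH1 with 201130_s_at, at 848). The 3 named markers of immune cells and fibroblasts, of 14 for immune, endothelial and fibroblast cells, had summed signals of 537 and 3931 in CD26+ cells, against 299 and 595 in CD26- cells. They did not move together. On CD26+ replicate 2 the immune marker CD14 was at its lowest, at 59.4. The fibroblast markers COL1A1 (878) and DCN (2509 with 211813_x_at, 484 with 211896_s_at) were at their highest there. The part of these differences in the results below was not tested.

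Signals are the linear values deposited by the authors and are given in the order replicate 1, replicate 2. Differences between arrays or groups are in log2 units of the quantile normalized signal plus 16, as CD26+ minus CD26-, and understate the change of dim probe sets. Standard errors (SE) come from a limma fit of all 4 arrays over 54613 probe sets. That fit called 0 probe sets, 0% of those tested, at an adjusted p under 0.05 (852, or 1.56%, before adjustment). The t-test named in the methods also called 0 after Benjamini-Hochberg adjustment, with 1847 at an unadjusted p under 0.05. When CD26+ replicate 1 was left out, so that CD26+ replicate 2 faced the CD26- arrays by itself, limma called 23148. No member passed in the fit of all 4 arrays, and no p-value is given for a member, since arrays that chose it enter the fit. Each fold change below is the difference of the group means on that scale, not evidence of a change. Statements below that both CD26+ arrays lay on 1 side of both CD26- arrays are descriptions too. The pair that chose the members is 1 of those 4 pairings, and the share of all named probe sets with such an order is not given here.

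In 9 genes a normalized probe set lay 2-fold or more apart, the same way, in each of the 4 possible pairings of a CD26+ with a CD26- array. The sialyltransferases among them lay on both sides, with ST6GAL1 and ST6GALNAC4 higher in CD26+ cells and ST3GAL1 lower. B3GALT6 was the other gene on the higher side. C1GALT1, MAN1A1, MGAT4A, ALG10B and DSEL were on the lower side with ST3GAL1. The counts are 3 of 78 members on the higher side, where 4.79% of the 8413 named probe sets were, and 6 on the lower, where 5.9% were. Both shares, 3.85% and 7.69%, were near that background. Within the listed side, 3 of 29 (10.3%) and 6 of 49 (12.2%) stand beside 8.54% and 13.4% of all named probe sets listed there, from which nothing is read, since the pair that chose them is one of the 4.

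ST6GAL1 adds sialic acid to terminal galactose, mainly of N-glycans. Its probe set 201998_at (chr3:186756529-186796341 in the authors' table, whose genome build is not given in the sources used here) gave signals of 1323 and 961 on the CD26+ arrays, against 172 and 447 on the CD26- arrays. Both CD26+ arrays were above both CD26- arrays, and the fold change was 1.67 (SE 0.85), and 1.88 without CD26+ replicate 2. ST6GALNAC4, which adds sialic acid to the GalNAc of sialylated O-glycan cores, gave 130.0 and 459 on the CD26+ arrays, against 12.7 and 31.5 on the CD26- arrays (228163_at, chr9:130670588-130674673). Its CD26- signals were under the median of their arrays, and the fold change was 2.19 (SE 0.82).

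ST3GAL1 places sialic acid on the galactose of core 1 O-glycans. It gave signals of 184 and 257 on the CD26+ arrays, against 603 and 819 on the CD26- arrays (225034_at, chr8:134467091-134470076). The groups did not overlap, and the array labelled CD26- replicate 2 was the highest of the 4. The fold change was -1.90 (SE 0.86), and -1.38 without CD26+ replicate 2. C1GALT1, the synthase of that core, gave signals of 313 and 538 on the CD26+ arrays, against 845 and 898 on the CD26- arrays with 226105_at (chr7:7284000-7288250), a fold change of -1.21 (SE 0.80). Its brighter probe set 219439_at gave 1198 and 389 (CD26+) against 2910.3 and 1447 (CD26-), and there CD26+ replicate 1 lay nearer to the array labelled CD26- replicate 2.

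MGAT4A, a GlcNAc transferase that adds a branch to complex N-glycans, gave signals of 36.7 and 119.5 on the CD26+ arrays, against 281 and 1625 on the CD26- arrays (226039_at, chr2:99235570-99237529). DSEL, related to the epimerase of dermatan sulfate, had 19.5 and 9.42 on the CD26+ arrays, against 139 and 846 on the CD26- arrays (232235_at, chr18:65173825-65181267). In both genes the array labelled CD26- replicate 2 was far above CD26- replicate 1, by 2.05 for MGAT4A and 1.90 for DSEL, beside -2.22 and -2.04 for CD26+ replicate 1 minus CD26- replicate 1. Their fold changes, -3.36 (SE 1.01) and -3.75 (SE 1.09), were the farthest below 0 of the 9 genes. Without CD26+ replicate 2 they were -3.25 and -2.99.

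MAN1A1, a Golgi mannosidase that trims N-glycans, gave signals of 772 and 450.3 on the CD26+ arrays, against 1868 and 3025 on the CD26- arrays (221760_at, chr6:119498373-119670926), a fold change of -2.24 (SE 0.96), and -1.42 without CD26+ replicate 2. ALG10B, a glucosyltransferase that adds a glucose to the lipid-linked N-glycan, gave 55.0 and 130.4 on the CD26+ arrays, against 305 and 260.4 on the CD26- arrays with 242900_at (chr12:38721744-38722951), a fold change of -1.97 (SE 0.82). B3GALT6, which adds a galactose to the glycosaminoglycan linker, gave 60.3 and 442 on the CD26+ arrays, against 12.8 and 3.82 on the CD26- arrays (226427_s_at, chr1:1168223-1169234). The 2 CD26- signals and that of CD26+ replicate 1 were under the median of their arrays, and the fold change was 2.37 (SE 0.91).

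The authors' table places 228163_at of ST6GALNAC4 on the plus strand and 226427_s_at of B3GALT6 on the minus strand, while RefSeq has ST6GALNAC4 on the minus strand and B3GALT6 on the plus strand. So 2 of the 3 probe sets on the higher side lay opposite to the strand of their gene. Of the 59 member probe sets placed on the chromosome of their gene whose strands could be compared, 7 lay opposite, or 11.9%, where 294 of 6279 listed probe sets with a single symbol did, or 4.68%. The other 5 belonged to ALG2, ALG5 (both probe sets), FUT6 (1565659_at) and HS3ST1 (213991_s_at). The HS6ST1 probe set 206997_s_at was left out, since the table places it on chromosome 1 and the gene lies on chromosome 2. What these probe sets measured was not tested.

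**Figure D1:**
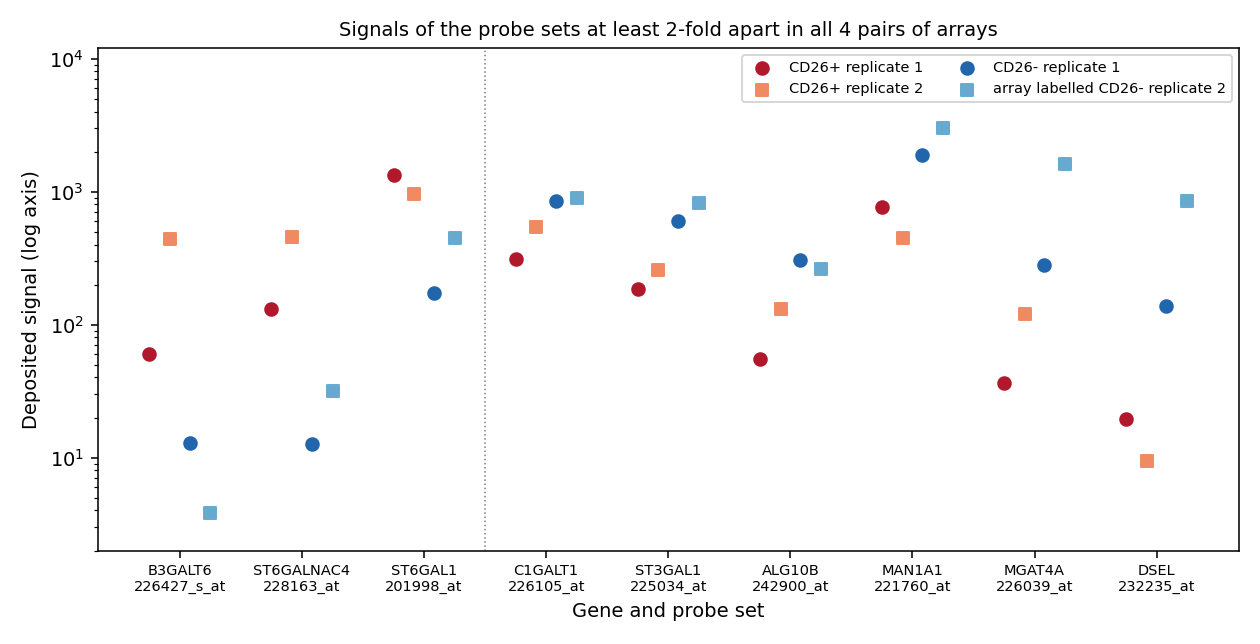
Deposited signals, on a log axis, of the 9 probe sets that lay 2-fold or more apart in every pairing, with a point for each array (circles for replicate 1, squares for replicate 2). The CD26+ points (red) are above the CD26- points (blue) left of the dotted line and below them right of it, and MGAT4A and DSEL show the wide gap between the CD26- arrays.

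The number of member probe sets apart in every pairing depended on the arrays kept, and with 1 array left out only 2 pairings remain. Without CD26+ replicate 2 it was 6 higher and 7 lower (7.69% and 8.97%, where 12.6% and 10.5% of the 8413 were). Without CD26- replicate 1 it was 7 and 8 (8.97% and 10.3%, where 9.68% and 9.31% were). Without the array labelled CD26- replicate 2 it was 7 and 26 (8.97% and 33.3%, where 14.0% and 17.0% were). Without CD26+ replicate 1 it was 17 and 33 (21.8% and 42.3%, where 27.6% and 34.5% were). With either replicate 2 array left out, the pair that chose the members is 1 of the 2 pairings kept. Of the members 37.2% were listed as higher in that pair, where 56.1% of the 8413 were. The shares of members and of the 8413 thus differ there partly by that choice, and nothing is read from them. With the signals as deposited B3GALT5, HS6ST3 and NDST2 joined the higher side, C1GALT1 and the ALG10B probe set 242900_at left the lower side, and another ALG10B probe set joined it. With each array centred on its median ST6GAL1 left the higher side and EXT1 joined the lower. With a pseudocount of 64 ST6GAL1 and B3GALT6 left the higher side.

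The promoters of 6 of these genes are shown for context, 3 of genes higher in CD26+ cells (ST6GAL1, ST6GALNAC4, B3GALT6) and 3 of genes lower (DSEL, MAN1A1, C1GALT1). Each window runs from 250 bases before to 50 after the start of the gene in RefSeq on GRCh38.p14, 5′ to 3′ on the strand of the gene. The windows are chr3:186930276-186930575 (plus strand) for ST6GAL1, chr9:127916992-127917291 (minus) for ST6GALNAC4, chr1:1231987-1232286 (plus) for B3GALT6, chr18:67516671-67516970 (minus) for DSEL, chr6:119349712-119350011 (minus) for MAN1A1 and chr7:7182294-7182593 (plus) for C1GALT1. Capitals mark matches, on either strand, to the GC box GGGCGG, the CCAAT box CCAAT, the TATA box TATAAA, the E-box CACGTG, the AP-1 motif TGANTCA and the ETS motif CCGGAAG, and matches that overlap or touch run together.
ST6GAL1: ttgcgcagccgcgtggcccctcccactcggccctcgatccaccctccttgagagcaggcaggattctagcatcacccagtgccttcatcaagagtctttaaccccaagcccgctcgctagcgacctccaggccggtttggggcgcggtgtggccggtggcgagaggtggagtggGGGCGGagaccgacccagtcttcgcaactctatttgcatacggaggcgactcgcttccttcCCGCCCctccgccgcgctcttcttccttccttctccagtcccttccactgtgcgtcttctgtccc
ST6GALNAC4: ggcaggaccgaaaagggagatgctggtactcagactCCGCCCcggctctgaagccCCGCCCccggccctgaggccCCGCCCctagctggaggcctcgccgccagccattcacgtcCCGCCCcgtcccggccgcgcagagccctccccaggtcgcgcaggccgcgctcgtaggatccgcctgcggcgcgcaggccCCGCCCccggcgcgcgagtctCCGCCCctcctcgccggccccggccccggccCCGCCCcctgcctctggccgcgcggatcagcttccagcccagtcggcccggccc
B3GALT6: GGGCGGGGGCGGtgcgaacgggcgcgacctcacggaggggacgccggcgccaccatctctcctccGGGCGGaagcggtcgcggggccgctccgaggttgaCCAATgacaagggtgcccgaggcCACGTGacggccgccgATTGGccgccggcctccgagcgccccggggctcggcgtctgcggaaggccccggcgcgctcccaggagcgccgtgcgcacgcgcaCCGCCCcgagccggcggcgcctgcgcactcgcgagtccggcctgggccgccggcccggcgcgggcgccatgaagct
DSEL: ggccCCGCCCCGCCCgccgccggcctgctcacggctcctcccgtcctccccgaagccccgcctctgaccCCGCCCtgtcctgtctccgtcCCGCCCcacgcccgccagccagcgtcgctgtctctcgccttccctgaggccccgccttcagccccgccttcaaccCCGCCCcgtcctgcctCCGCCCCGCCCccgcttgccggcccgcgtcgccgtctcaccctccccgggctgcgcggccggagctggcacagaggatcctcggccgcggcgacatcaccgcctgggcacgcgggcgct
MAN1A1: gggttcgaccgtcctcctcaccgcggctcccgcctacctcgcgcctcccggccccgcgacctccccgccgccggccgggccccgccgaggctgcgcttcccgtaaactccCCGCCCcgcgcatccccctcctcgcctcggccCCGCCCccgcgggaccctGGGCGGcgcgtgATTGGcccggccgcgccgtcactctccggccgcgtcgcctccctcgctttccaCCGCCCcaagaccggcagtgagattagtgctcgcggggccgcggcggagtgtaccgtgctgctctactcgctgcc
C1GALT1: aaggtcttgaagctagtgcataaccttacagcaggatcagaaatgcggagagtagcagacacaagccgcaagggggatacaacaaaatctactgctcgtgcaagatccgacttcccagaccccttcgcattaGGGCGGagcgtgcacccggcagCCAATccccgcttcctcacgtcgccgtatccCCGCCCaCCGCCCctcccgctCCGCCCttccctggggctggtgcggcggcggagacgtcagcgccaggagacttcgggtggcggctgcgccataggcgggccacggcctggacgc

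GC boxes were counted 2 times in the ST6GAL1 window, 7 times in that of ST6GALNAC4 and 4 times in that of B3GALT6, against 7 times for DSEL, 4 for MAN1A1 and 4 for C1GALT1, so windows of both sides held them. None of the 6 held a TATA box, an AP-1 or an ETS match. Windows were at hand for 49 of the 63 member genes. Of these, 40 held a GC box, or 81.6%, where 58.5% of 15843 windows of protein-coding genes did. A CCAAT box was in 17, or 34.7%, where 36.4% of all windows held one. A TATA box was in 0, where 9.63% of all windows held one, and an ETS match in 2, or 4.08%, where 14.2% did. The E-box, at 8.16% against 8.88%, and AP-1, at 4.08% against 5.75%, were near the share of all windows. The median GC content was 69.0% in the windows of the members and 62.7% in all. A match describes these letters and does not show that a factor binds there.

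Over all 78 members the median fold change was -0.77, beside -0.04 over all 8413 named probe sets, and with the signals as deposited these medians were -0.11 and 0.46. The pair that chose the members enters these medians, and 37.2% of members were listed as higher, where 56.1% of the 8413 were. Members listed as higher had a median of 0.87, beside 0.64 over all listed as higher. Members listed as lower had -1.24, beside -0.98 over all listed as lower. Of the 78 probe sets, 7 were under the array median on all 4 arrays. The genes of N-glycan assembly were mostly on the lower side of the pair that chose them. Of 13 probe sets of 9 ALG genes, 11 were listed as lower and 2 as higher. Their median fold change was -1.24, and -0.54 without CD26+ replicate 2, beside -0.98 and -0.87 over all named probe sets listed as lower. ALG13, the catalytic partner in the transferase for the second GlcNAc of the block, gave signals of 1386 and 54.1 on the CD26+ arrays, against 3447 and 1335 on the CD26- arrays. CD26+ replicate 1 was close to the array labelled CD26- replicate 2, and the fold change was -3.17 (SE 1.82), and -0.54 without CD26+ replicate 2. ALG2, a mannosyltransferase, was the highest of the group at 2.49 (SE 1.28), with signals of 46.5 and 934 on the CD26+ arrays, against 20.6 and 17.7 on the CD26- arrays, and 0.85 without CD26+ replicate 2.

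ALG10B and its near copy ALG10, which share sequence, may not be told apart by their probes. All 5 of their probe sets were listed as lower. The brightest ALG10B probe set, 228941_at, gave signals of 223 and 31.2 on the CD26+ arrays, against 766 and 537 on the CD26- arrays, and 238475_at had 149 and 182 (CD26+) against 356 and 287 (CD26-). The ALG10 probe sets 1552306_at and 1552304_at gave 191 and 56.4 (CD26+) against 688 and 81.2 (CD26-) and 105 and 87.6 (CD26+) against 276 and 35.2 (CD26-). With both ALG10 probe sets CD26+ replicate 1 was above the array labelled CD26- replicate 2, while with all 3 of ALG10B it was below. ALG5, which makes the glucose donor on the lipid, had 222556_at at 74.3 and 129.8 (CD26+) against 173 and 52.7 (CD26-) and 1560733_at at 55.4 and 289 (CD26+) against 27.6 and 56.2 (CD26-), listed on opposite sides, and the fold change of 222556_at was -0.60, and 0.01 with the signals as deposited and -0.15 without CD26+ replicate 2. The other 5 genes, ALG1, ALG6, ALG8, ALG10 and ALG12, had fold changes from -1.92 to -0.69, and from -1.31 to 0.24 without CD26+ replicate 2.

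All 8 probe sets of the 6 genes of N-glycan trimming and branching were listed as lower. Their median fold change was -1.78, and -0.89 without CD26+ replicate 2. The pair that sets the side enters these values, and all 3692 named probe sets listed as lower had medians of -0.98 and -0.87. Between the CD26- arrays 0 of the 8 were at least 2-fold lower on the array labelled CD26- replicate 2, where 31.3% of the 3692 were. That 0 rests on the 2-fold limit, since MGAT2 lay at -0.996. The median difference of the 8 between the CD26- arrays was -0.675, beside -0.594 over the 3692, so they were not steadier there. MAN2A1, a Golgi mannosidase that acts after MAN1A1, gave signals of 2171 and 1162 on the CD26+ arrays, against 5887 and 3529 on the CD26- arrays with 226538_at. Its other probe sets, 205105_at and 235103_at, gave 939 and 123 (CD26+) against 2881 and 1657 (CD26-) and 283 and 18.9 (CD26+) against 760.0 and 488 (CD26-), and with all 3 both CD26+ arrays were below both CD26- arrays. MAN2A2, its relative, gave 847 and 505 (CD26+) against 1913 and 1048 (CD26-), and MAN1A2 150.1 and 225 (CD26+) against 323 and 162 (CD26-), and their fold changes were -1.33 and -0.79, and -0.58 and -0.29 without CD26+ replicate 2. MGAT2, the GlcNAc transferase that opens the way to complex N-glycans, gave signals of 436 and 1769.6 on the CD26+ arrays, against 1254 and 592 on the CD26- arrays. Its CD26+ arrays lay on both sides of the CD26- arrays, and its fold change of 0.40 turned to -0.66 with arrays centred on their medians and -0.72 without CD26+ replicate 2.

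**Figure D2:**
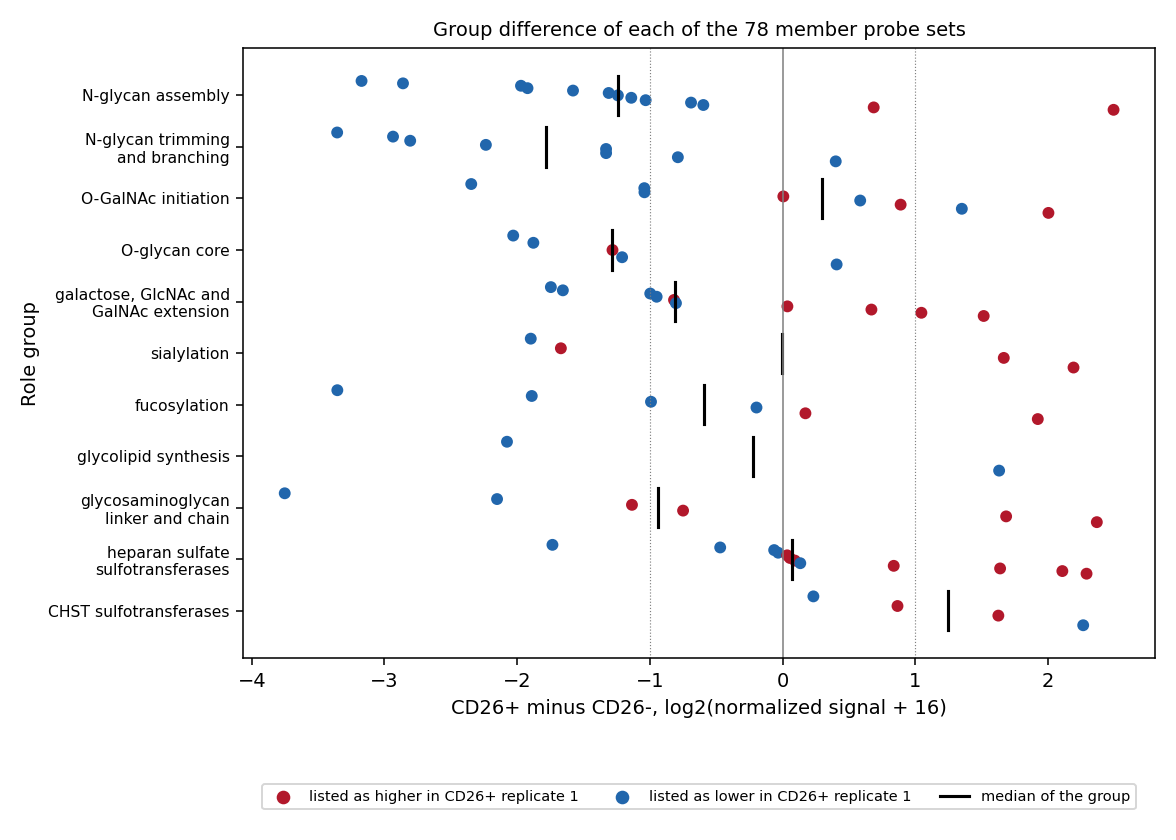
Difference of the group means, CD26+ minus CD26-, in log2(normalized signal + 16), for each of the 78 member probe sets by role group, coloured by whether CD26+ replicate 1 was above (listed as higher) or below CD26- replicate 1. Black bars are group medians and dotted lines mark 2-fold. The N-glycan groups, mostly or all listed as lower, have medians of -1.24 and -1.78, where all named probe sets listed as lower have -0.98.

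GALNT enzymes start mucin-type O-glycans. Of 8 probe sets of 7 genes, 3 were listed as higher and 5 as lower, with a median fold change of 0.30. It was -0.09 without CD26+ replicate 2 and 0.97 with the signals as deposited. GALNT6 gave signals of 284 and 1003 on the CD26+ arrays, against 30.0 and 294 on the CD26- arrays with 219956_at, a fold change of 2.00 (SE 1.13), and 1.28 without CD26+ replicate 2, although CD26+ replicate 1 was close to the array labelled CD26- replicate 2. Its probe set 228303_at gave 376 and 207 (CD26+) against 119 and 213 (CD26-), a fold change of 0.01, and 1.04 without CD26+ replicate 2. GALNT2 had 1467 and 141 on the CD26+ arrays, against 2948 and 1165 on the CD26- arrays, a fold change of -2.35 (SE 1.54), and -0.27 without CD26+ replicate 2.

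GALNT5 gave signals of 82.1 and 218 on the CD26+ arrays, against 194 and 215 on the CD26- arrays, a fold change of -1.04 (SE 0.80). The fold change was -0.54 with the signals as deposited, where CD26+ replicate 2 was the highest array, and -0.87 without CD26+ replicate 2. The table's GALNTL2, now named GALNT15, gave 26.1 and 894 (CD26+) against 55.6 and 40.7 (CD26-), where 1 array, CD26+ replicate 2, stood above the other 3. Its fold change was 1.35, and -0.51 without that array. GALNT9, GALNT10 and GALNTL1 (now GALNT16) had fold changes from -1.04 to 0.89, and from -0.83 to 1.08 without CD26+ replicate 2.

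Genes of O-glycan core formation and branching had a median fold change of -1.28 over 5 probe sets of 3 genes, and -0.65 without CD26+ replicate 2. Of these probe sets 4 were listed as lower and 1 as higher. C1GALT1C1, the chaperone that C1GALT1 needs to fold, gave signals of 2065 and 476 on the CD26+ arrays, against 5553 and 2080.4 on the CD26- arrays. The signals of CD26+ replicate 1 and of the array labelled CD26- replicate 2 were nearly the same. The fold change of C1GALT1C1 was -2.03 (SE 1.22), and -0.66 without CD26+ replicate 2. GCNT2, which makes branched chains of the I blood group antigen, was listed as higher with 230788_at, at 1038 and 106 (CD26+) against 463 and 691 (CD26-). The fold change of 230788_at was -1.28, opposite to its listed side, and 0.78 without CD26+ replicate 2. GCNT2 was listed as lower with 211020_at, at 20.7 and 265 (CD26+) against 53.7 and 13.1 (CD26-), which was under the array median on all 4 arrays. The fold change of 211020_at was 0.41, and -0.265 without CD26+ replicate 2.

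In the group set up for chain extension with galactose, GlcNAc or GalNAc, 5 of 10 probe sets were listed as higher and 5 as lower, over 8 genes. Its genes were assigned by their older symbols. It thus holds B3GALTL and B3GNTL1, now B3GLCT and QTGAL, for which this role is not claimed. The median fold change of the group was -0.81, but 0.42 without CD26+ replicate 2 and -0.22 with the signals as deposited. B3GALT5, which makes type 1 chains, the base of the sialyl Lewis a antigen, gave signals of 177 and 393 on the CD26+ arrays, against 72.8 and 63.2 on the CD26- arrays. Both CD26+ arrays were above both CD26- arrays, with a fold change of 1.05 (SE 0.81), and 1.21 without CD26+ replicate 2. B4GALNT3, which adds GalNAc to GlcNAc, had 128 and 202 on the CD26+ arrays, against 39.6 and 66.3 on the CD26- arrays with 1553727_at and 86.0 and 382 (CD26+) against 40.2 and 16.8 (CD26-) with 229203_at. Both of its probe sets had CD26+ above CD26- on all arrays, with fold changes of 0.67 and 1.52, and 1.15 and 1.29 without CD26+ replicate 2. With 1553727_at, CD26+ replicate 2 exceeded the array labelled CD26- replicate 2 by only 0.05 after normalization.

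B3GNT3, a GlcNAc transferase that extends core 1 O-glycans, gave signals of 533 and 223 on the CD26+ arrays, against 1139.9 and 723 on the CD26- arrays. Both CD26+ signals were below both CD26- signals, and the fold change was -1.75 (SE 1.08), and -0.58 without CD26+ replicate 2. B3GALNT2, which acts on the O-mannose glycans of dystroglycan, gave 159.7 and 68.7 (CD26+) against 458 and 142 (CD26-), a fold change of -1.66, and -0.35 without CD26+ replicate 2. Its signal on CD26+ replicate 1 was above that on the array labelled CD26- replicate 2. The B3GNT7 signal was 166 on CD26+ replicate 1 and 17.9 on CD26- replicate 1, but 95.3 on CD26+ replicate 2, against 203 on its counterpart labelled CD26- replicate 2. Its fold change was 0.04, and 1.16 without CD26+ replicate 2. B3GNT2 had 85.2 and 211 (CD26+) against 241 and 159.9 (CD26-), and the brighter B3GALTL probe set (now B3GLCT) 581 and 453 (CD26+) against 2113 and 291 (CD26-). B3GNTL1, now QTGAL, gave 915 and 73.5 (CD26+) against 271 and 314 (CD26-), a fold change of -0.82, and 1.41 without CD26+ replicate 2.

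Of the 4 sialyltransferase genes, ST6GALNAC1, the enzyme that makes the sialyl-Tn antigen, differed most between the CD26- arrays, and the fold changes of the 4 ran from -1.90 to 2.19. It gave signals of 340.1 and 63.2 on the CD26+ arrays, against 45.1 and 1908 on the CD26- arrays (227725_at). The array labelled CD26- replicate 2 exceeded CD26- replicate 1 by 4.21. In deposited signal the CD26- arrays were the highest and the lowest of the 4, while after normalization CD26+ replicate 2 was the lowest. Its fold change was -1.67 (SE 1.84), and 0.07 without CD26+ replicate 2. On that array labelled CD26- replicate 2 the goblet cell peptide TFF3 was also far above CD26- replicate 1, at 7980.5 against 163. This was not particular to TFF3. The other colon epithelial probe sets were also higher there, such as CDX1 (1015 against 20.5) and CDH17 (3622 against 235). The exception was CDH1 with 201130_s_at, at 99.7 against 107.5. A link of these signals to ST6GALNAC1 was not tested.

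Among the fucosyltransferases here, FUT4, FUT6 and FUT7 cap chains to form Lewis antigens. FUT10 and FUT11, now POFUT3 and POFUT4, entered the group by their older symbols, and this role is not claimed for them. Of 6 probe sets of 5 genes, 2 were listed as higher and 4 as lower, and their median fold change was -0.59, but 0.14 with the signals as deposited. FUT4, which makes the Lewis x antigen, gave signals of 1869.8 and 109.7 on the CD26+ arrays, against 5436 and 2635 on the CD26- arrays. Both CD26+ arrays were below both CD26- arrays, and the fold change was -3.36 (SE 1.68), and -0.96 without CD26+ replicate 2. FUT7, which makes sialyl Lewis x, gave 162 and 1074 on the CD26+ arrays, against 80.7 and 90.0 on the CD26- arrays, the opposite order, with a fold change of 1.92 (SE 1.04), and 0.84 without CD26+ replicate 2.

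FUT6, another Lewis enzyme, was listed as higher with 1565659_at, at 55.4 and 284 (CD26+) against 25.2 and 145 (CD26-), and as lower with 1565660_at, at 18.8 and 142 (CD26+) against 91.6 and 62.7 (CD26-). FUT11, now named POFUT4, gave signals of 134 and 72.0 on the CD26+ arrays, against 400.5 and 222 on the CD26- arrays. Its CD26+ signals were below both CD26- signals, and the fold change was -1.89 (SE 1.10), and -0.70 without CD26+ replicate 2. FUT10, now POFUT3, was under the array median on all 4 arrays.

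Glycosaminoglycan linker and chain genes were split. Of 6 genes with 1 probe set each, 4 were listed as higher and 2 as lower, with a median fold change of -0.94, but 0.54 without CD26+ replicate 2 and -0.38 with the signals as deposited. EXT1, a polymerase of heparan sulfate, gave signals of 136 and 106 on the CD26+ arrays, against 283 and 721 on the CD26- arrays, with no overlap of the groups and a fold change of -2.15 (SE 1.03), and -1.21 without CD26+ replicate 2. EXTL3, which starts the heparan sulfate chain, had 89.7 and 732 on the CD26+ arrays, against 35.1 and 72.2 on the CD26- arrays, a fold change of 1.68 (SE 0.99), and 0.75 without CD26+ replicate 2. B4GALT7, the other linker galactosyltransferase, gave 438 and 127 (CD26+) against 184 and 354 (CD26-), and DSE, the epimerase, 96.0 and 14.2 (CD26+) against 47.7 and 117 (CD26-). For these last 2 genes CD26+ replicate 2 was the lowest of the arrays, and their fold changes, -0.75 and -1.13, were 0.68 and 0.39 without it.

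Heparan sulfate sulfotransferases set the sulfation pattern that growth factors bind. They had 7 probe sets listed as higher and 5 as lower, over 9 genes, with a median fold change of 0.07, and 0.80 with the signals as deposited. HS6ST3 gave signals of 67.1 and 775 on the CD26+ arrays, against 21.8 and 41.1 on the CD26- arrays with 229714_at and 124 and 353 (CD26+) against 52.4 and 11.6 (CD26-) with 232276_at. In both probe sets the CD26+ arrays were above the CD26- arrays, with fold changes of 2.11 and 1.64, and 0.92 and 1.70 without CD26+ replicate 2. HS3ST6 gave 51.4 and 1375 on the CD26+ arrays, against 25.6 and 69.7 on the CD26- arrays, where CD26+ replicate 2 alone stood apart, and its fold change of 2.29 was 0.25 without it.

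HS2ST1 gave signals of 753 and 330.3 on the CD26+ arrays, against 1969.7 and 899.6 on the CD26- arrays, a fold change of -1.73 (SE 1.08), and -0.65 without CD26+ replicate 2. HS6ST1 gave 24.0 and 274 (CD26+) against 61.8 and 45.6 (CD26-), a fold change of -0.06, but 0.64 with the signals as deposited and -0.70 without CD26+ replicate 2. NDST1, which starts the sulfation of the chain, was listed as higher with 202607_at, at 367 and 257 (CD26+) against 109 and 268 (CD26-), and as lower with 202608_s_at, at 18.2 and 282 (CD26+) against 38.2 and 125 (CD26-). Its relative NDST2 had 275 and 162 (CD26+) against 71.8 and 42.9 (CD26-). Its deposited CD26+ signals were above both CD26- signals, but after normalization the groups overlapped, with a fold change of 0.84, and 1.86 without CD26+ replicate 2. HS3ST1, HS3ST5 and HS6ST2 had fold changes from -0.03 to 0.13, and from -0.73 to 0.15 without CD26+ replicate 2.

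The CHST sulfotransferases had 2 probe sets listed as higher and 2 as lower, 1 for each of 4 genes. CHST5, a GlcNAc sulfotransferase of the intestine, gave signals of 164 and 1221 on the CD26+ arrays, against 53.5 and 309 on the CD26- arrays with a probe set of the _x_at type, which can match several transcripts, and a fold change of 1.63 (SE 1.20). It was 0.40 without CD26+ replicate 2 and 0.78 without CD26- replicate 1. CHST10, which sulfates the HNK-1 carbohydrate, gave 21.8 and 2101 on the CD26+ arrays, against 73.9 and 25.3 on the CD26- arrays. Only CD26+ replicate 2 was above 100 there, and the fold change of 2.27 became -0.62 without it. CHST4, a GlcNAc sulfotransferase, had 103 and 1380.4 (CD26+) against 332 and 512 (CD26-), a fold change of 0.23, and -0.77 with arrays centred and -1.40 without CD26+ replicate 2. CHST13 had 265 and 562 (CD26+) against 41.5 and 423 (CD26-). The median of the group was 1.25, and -0.11 without CD26+ replicate 2.

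In glycolipid synthesis both probe sets were listed as lower. B3GNT5, which starts the lacto-series, gave 15.4 and 981 (CD26+) against 37.5 and 28.9 (CD26-), and B4GALT6, a lactosylceramide synthase, 151 and 14.2 (CD26+) against 368 and 144 (CD26-). Their fold changes of 1.63 and -2.08 were -0.56 and -0.30 without CD26+ replicate 2.

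The array labelled CD26- replicate 2 shows how far the members moved within the CD26- group. Of the 49 members listed as lower, 19 were at least 2-fold below CD26- replicate 1 on it, or 38.8%, where 31.3% of the 3692 named probe sets listed as lower were. Of the 29 listed as higher, 8 were at least 2-fold higher on it, or 27.6%, where 27.5% of 4721 were. Of the 19, 6 were ALG probe sets, out of 11 ALG probe sets listed as lower, a number too small for a share to be read. MGAT4A and DSEL went the other way, as did NDST1 with 202608_s_at, so 3 of the 49 were at least 2-fold higher on it, or 6.12%, where 2.65% were. Of the 29, HS6ST3 with 232276_at was the 1 at least 2-fold lower on it, or 3.45%, where 5.17% were.

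**Figure D3:**
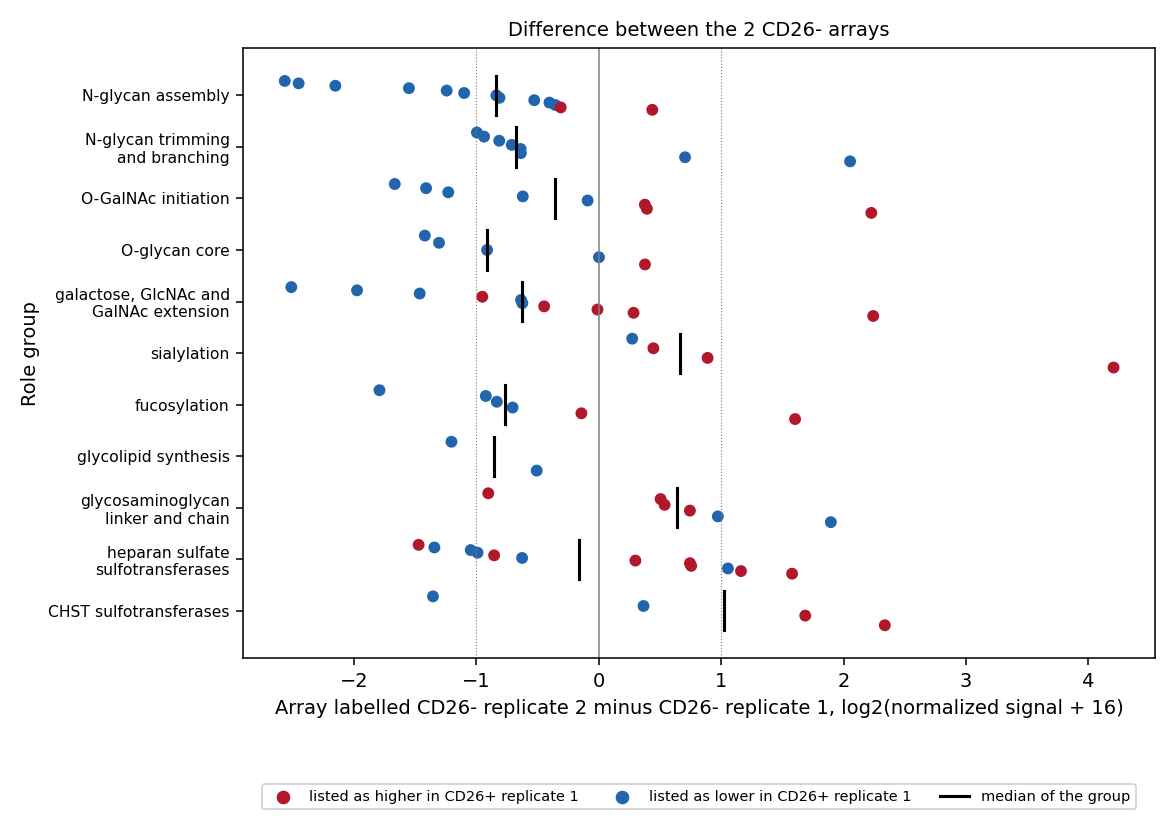
Difference of the array labelled CD26- replicate 2 from CD26- replicate 1, in log2(normalized signal + 16), for each member probe set by role group, with black bars for group medians and dotted lines at 2-fold. ST6GALNAC1 lies farthest to the right at 4.21.

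The pairing of CD26+ replicate 2 with the array labelled CD26- replicate 2 shares no array with the pair that chose the members. With 1 array on each side it gives no test. Of the 49 members listed as lower, 28 were at least 2-fold lower in this pair, or 57.1%, where 46.7% of all 3692 were, and 9 were at least 2-fold higher, or 18.4%, where 27.5% were. Of the 29 listed as higher, 13 were at least 2-fold higher, or 44.8%, where 36.5% of 4721 were, and 8 were at least 2-fold lower, or 27.6%, where 35.6% were. The differences in this pair were -5.29 for FUT4, -5.18 for ALG13, -5.46 for DSEL and -5.52 for ST6GALNAC1, against 5.83 for CHST10 and 4.29 for ALG2. Between the CD26+ arrays, 34 of the 78 members were at least 2-fold lower on replicate 2 than on replicate 1, or 43.6%, where 42.9% of the 8413 were, and 18 were at least 2-fold higher, or 23.1%, where 29.4% were.

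**Figure D4:**
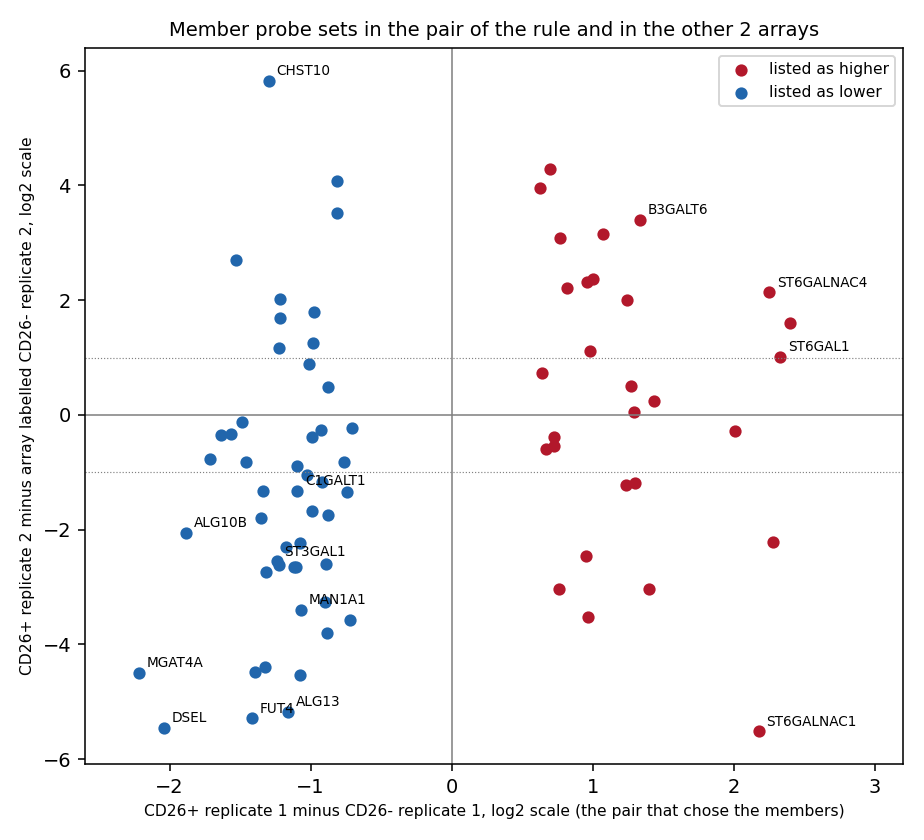
Difference of CD26+ replicate 1 from CD26- replicate 1 (x axis, the pair that chose the members) against that of CD26+ replicate 2 from the array labelled CD26- replicate 2 (y axis), both in log2(normalized signal + 16), with a point for each of the 78 member probe sets. Points listed as lower spread from -5.46 to 5.83 on the y axis and those listed as higher from -5.52 to 4.29.

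The rest of the glycosylation machinery was read from 6 further lists, whose counts stand beside the same 4.79% higher and 5.9% lower in every pairing over all named probe sets. OST4 and STT3B are subunits of the oligosaccharyltransferase that moves the ALG block onto proteins. Of 9 genes with a symbol among 21 of this complex and the dolichol steps, OST4 (224637_at, signals of 24075 and 35934 on the CD26+ arrays, against 5173 and 7899 on the CD26- arrays) and STT3B (230627_at, 164 and 896 (CD26+) against 34.1 and 17.7 (CD26-)) were 2-fold or more higher in every pairing, and 0 of the 12 probe sets were lower. The brightest STT3B probe set, 224700_at, went the other way at 5217 and 194 (CD26+) against 14058 and 6016 (CD26-), so STT3B has no single direction. Among 12 of 27 other transferases, GYLTL1B, now LARGE2, was higher with signals of 516 and 963 on the CD26+ arrays, against 93.2 and 86.0 on the CD26- arrays, and OGT, UGCG and UGGT2 each had a probe set that was lower. OGT, which adds GlcNAc to proteins of the cytosol and nucleus, had 6991 and 2353 (CD26+) against 14452 and 12463 (CD26-). UGCG, the glucosylceramide synthase, had 1405 and 49.5 (CD26+) against 4496 and 4855 (CD26-).

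SLC35A3, the transporter that brings UDP-GlcNAc into the Golgi, was lower in every pairing with both of its probe sets, at 885 and 466 (CD26+) against 2261 and 2336 (CD26-) and 1024 and 425 (CD26+) against 2809.5 and 4295 (CD26-), and the other 6 named transporters had 0 such probe sets. Of 12 named mucins and proteoglycan core proteins among 29, MUC20 was lower (30.4 and 30.6 (CD26+) against 93.1 and 236 (CD26-)). The 11 named glycosidases and sulfatases among 27 had 19 probe sets, 2 of them higher (ARSB and IDUA) and 4 lower (2 of IDS, 1 each of MGEA5 and NGLY1). The 8 named genes of sugar nucleotide and PAPS synthesis among 27 had 0 on either side. The lists had median fold changes from -1.54 to 0.61, beside -0.04 over all named probe sets. The pair that sets the listed side enters these medians as well. Without CD26+ replicate 2 they ran from -1.16 to 0.76, beside 0.36, and that of sugar nucleotide and PAPS synthesis turned to 0.29, from -1.22 with all 4 arrays.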

How the data were processed

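RNA of CD26+ and CD26- HT29 cells (2 arrays each) was labelled with the 3′-IVT kit. The deposited value table holds linear signal intensities that the authors made with Genespring GX and Genomatix Genome Analyzer. The summarization is not given in the sources used here. A second deposited table annotates probe sets, and its fold changes, direction and fold score, from 1 pair of arrays, were not used. All 63 Entrez identifiers of the members matched RefSeq (GRCh38.p14), which renames 6.

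Signals were quantile normalized with limma 3.58.1 (R 4.3.3), 16 was added and log2 taken, without the 62 control probe sets. The other 54613 were fitted with lmFit and eBayes (two-sided, Benjamini-Hochberg, threshold 0.05). On simulated data, recovery of set changes was required only at a spread far below that of these arrays, whose median residual standard deviation was 0.976. The simulation thus does not show what the fit recovers at the spread of these arrays. With 2 arrays against 2, the smallest p of an exact permutation test is 0.33, and p-values reflect differences between samples that may be technical. The members, lists and tests were chosen with earlier results of these data known. A gene is represented by its probe set of highest mean. By rule, 37 genes were named: those 2-fold apart in every pairing, the 2 largest differences each way in role groups of 3 or more genes, genes listed on opposite sides, DSEL and MGAT4A. Others given with array values were chosen after their values were seen. Alternatives were the deposited scale, median centring, pseudocounts of 1 and 64, bright probe sets, no _x_at or _s_at, folds of 1.5 and 3, another prior, a replicate block, the methods' t-test, a threshold of 0.1, mean probe sets and single arrays left out. Dropping CD26+ replicate 2 before normalization was added after seeing the data.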

Additional observations from a re-analysis of the deposited data

How the results depend on the processing

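The limma count of 0 probe sets held under the other scalings, pseudocounts, priors and the threshold of 0.1, and ran from 0 to 23148 with 1 array left out, the higher count being without CD26+ replicate 1. The replicate block called 1 probe set, which is no member. The deviations of same-numbered arrays from their group means correlated at 0.037. This cannot decide whether replicate numbers pair the samples, since CD26+ replicate 2 had an r of only 0.289 to 0.321 with each other array. The methods' t-test gave 1847 at its unadjusted threshold. The 3 members higher in all 4 pairs were 6 with the signals as deposited, 1 with a pseudocount of 64, 1 among bright probe sets, 9 at a fold of 1.5, 1 at a fold of 3, 9 when CD26+ replicate 2 was dropped before normalization, and 6 to 17 with 1 array left out. The 6 members lower in all 4 pairs were 12 at a fold of 1.5, 2 at a fold of 3, and 7 to 33 with 1 array left out. The 13 members higher in the replicate 2 pair were 7 among bright probe sets. The cause was not tested, beyond that a wider or narrower fold and fewer probe sets or pairs change such counts by construction. The median fold change of all 54613 probe sets was 0.11, and 0.63 with the signals as deposited and -0.06 with arrays centred, so directions near 0 follow the scaling. Of the 37 genes given by rule, 6 changed sign without CD26+ replicate 2 (also when it was dropped before normalization), 4 without CD26- replicate 1, 2 without CD26- replicate 2, 2 without CD26+ replicate 1, 2 with the signals as deposited, 1 with arrays centred and 3 of 9 with the mean of the probe sets. Depth does not apply to arrays, and the dim probe sets have the least certain values.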
